A study of Mus musculus with 4 samples.

Results

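Cadherins, integrins and neural adhesion molecules hold cells to each other and to the matrix. They were followed here in the hippocampus of an amyloid mouse model. Members were the probe sets paired with 1 gene symbol that begins with Cdh and a digit (Cdh5 excepted), Pcdh, Itga, Itgb, Dsg, Dsc and a digit, Ncam, Cntn, Nrxn or Nlgn, or that is L1cam or Chl1. On this array, several short oligonucleotides together form a probe set, designed to read a transcript or a group of related ones. The rule found 71 probe sets for 46 genes, of 12422 probe sets in all and of 8251 genes named by a single symbol. No neurexin or neuroligin was among them. The rule also takes in Itgb1bp1, which encodes a protein that binds integrins, and Cntnap1, which encodes a partner of contactin; neither belongs to the family its symbol recalls. Cdh1, Cdh11, Itgb4, Itgb2l, Ncam2 and most members under the filter are named below after their values were seen.

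APPSw mice carry the Tg2576 transgene, which overexpresses the Swedish mutant form of amyloid precursor protein, and controls were nontransgenic C57B6/SJL mice. All were males aged 12 months, and RNA came from the left hippocampus. There were 2 arrays of APPSw mice and 2 of controls, which limits the precision of every value. As background, the Tg2576 transgene is human and driven by the hamster prion protein promoter, which is active in neurons of many brain regions. Each label describes a single mouse, but whether the mice were littermates or the arrays were run together is not given. The p-values below set each difference against the spread of these samples only, pooled in part over all probe sets tested. Some of that spread, and of the differences, may be technical.

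The signal of an array is a relative brightness, scaled by the authors to a target of 2500, and signals of different probe sets cannot be set against each other as levels. A filter removed dim probe sets before the test: those with a mean log2 signal below the 40th percentile of all, a geometric mean of 565. Of the 71 member probe sets, 33 passed this filter, for 25 genes, and 38 did not, which left 21 genes with no probe set past it. The dimmest member to pass was Itgb2l, at a geometric mean of 617, and the brightest to fail was Cdh6, at 516. Median signals over all probe sets were 1033 and 1013 on APPSw arrays 1 and 2, against 926 and 988 on control arrays 1 and 2. Of 16 probe sets for markers of hippocampal principal neurons, 13 passed the filter, as did 7453 of all 12422. They stood for 12 of the 13 genes measured from that list, all but Prox1. Passing the filter is not a detection call.

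Classical cadherins bind their own kind across a cell contact, and their tails reach actin through catenins. At synapses they line the rim of the contact zone. Integrins pair an alpha with a beta chain and bind laminin, collagen, other matrix proteins or, on leukocytes and microglia, proteins of other cells. NCAM, L1 family proteins and contactins are immunoglobulin superfamily molecules that guide and bundle axons. Contactin and its partner Cntnap1 also form the junction of myelin with the axon beside the node.

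No adhesion gene passed limma's test between APPSw and control mice. Of the 33 member probe sets, 0 had an adjusted p under 0.05 (adjusted p = 0.599 to 0.981), as did 0% of all 7453 probe sets tested. At an unadjusted p under 0.05 there were 5 member probe sets higher in APPSw mice, for Dsg2, Itgb7, Chl1, Cdh3 and Itgb5, which is 15.2% of the members, against 4.72% of all probe sets. There was 1 lower, for Itgb1bp1, which is 3.03% of the members, against 3.33% of all probe sets. With no filter there were 6 among 71 members (5 higher, 1 lower), against 816 among all 12422 probe sets (556 higher, 260 lower). Of these 6, 3 were the same (Dsg2, Itgb7 and Chl1). Cdh3, Itgb5 and Itgb1bp1 no longer passed, and dim probe sets of Dsc2, Itga4 and Itgae did. Both APPSw arrays lay above both controls for 13 members (39.4%), against 22.2% of all probe sets. Both lay below both controls for 6 members (18.2%), against 19.0% of all, and the groups overlapped for 14. With 2 arrays a group, the smallest two-sided p of an exact permutation test is 0.333. Some of these counts moved when an array was left out. Shares over all probe sets are not given for those settings, so nothing is read from the moved counts. With an array left out, its group has a single array, which the fit assumes to vary like the arrays of the other group.

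These shares count probe sets, of which several stand for the same gene, so the members are not independent of each other. With the 38 dim members included, 25 of 71 lay above both controls (35.2%), against 23.6% of all 12422 probe sets, and 8 of 71 lay below both (11.3%), against 15.7%. The median log2 difference, APPSw minus control, was 0.11 over the 33 members and 0.02 over all probe sets past the filter. Over the members it was 0.21 without control 1 and 0.061 without control 2. Over all 71 members the median was 0.19, against 0.06 over all 12422. For 14 of the 33 members (42.4%) the difference between group means was larger than the gap between the arrays of either group, which held for 27.7% of all probe sets past the filter. Each APPSw array lay at least 1.5-fold above each control for 1 member, Dsg2, against 0.859% of all probe sets, and 1.5-fold below for 0 members, against 0.362%.

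**Figure D1:**
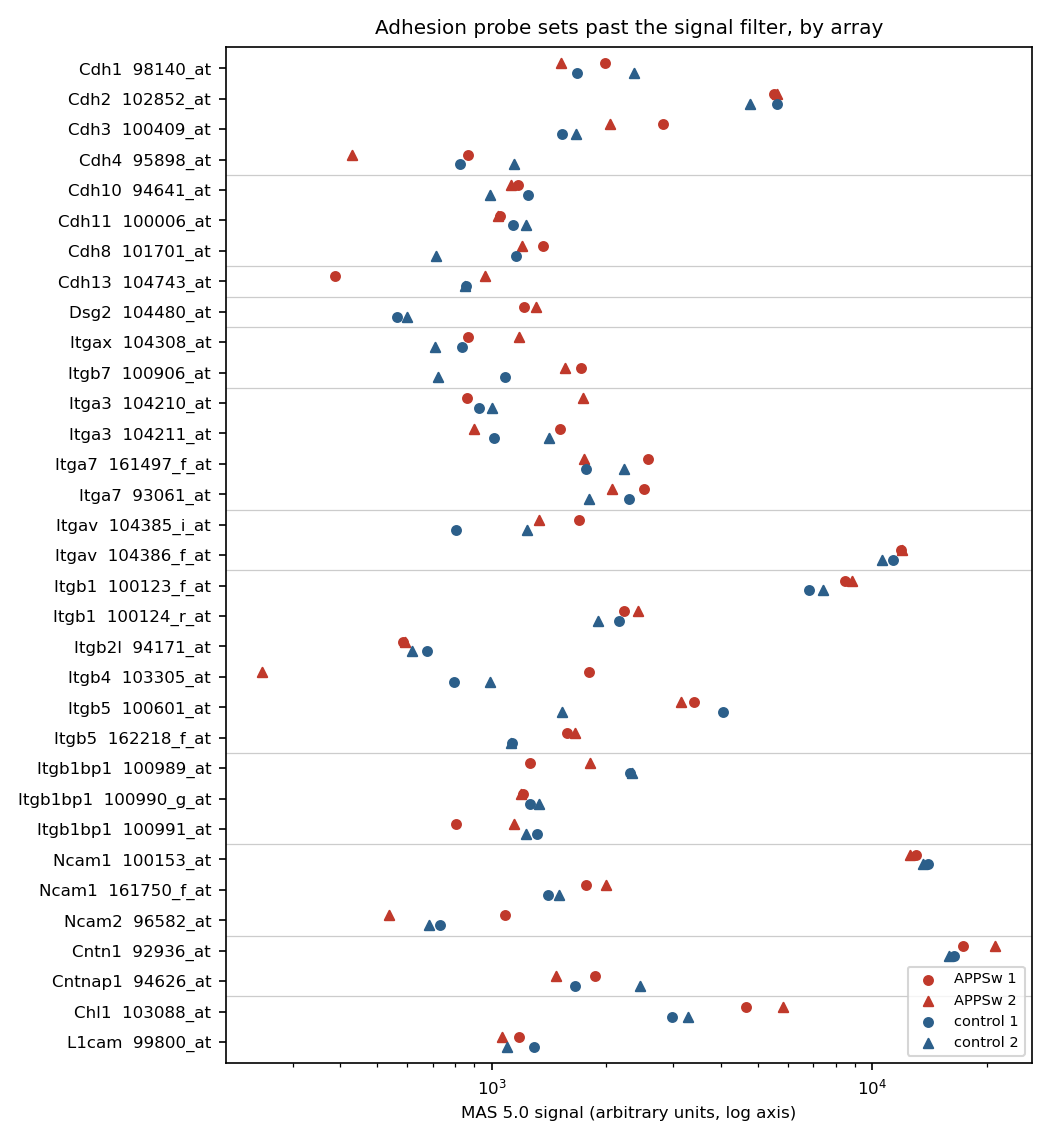
Signal on each array (log axis, arbitrary units) for the 33 member probe sets past the filter, with APPSw arrays in red above controls in blue, and grey lines between families. Both red points lie right of both blue points for 13 probe sets, among them Dsg2, Itgb7, Chl1 and both of Itgb1, and left of both for 6, among them all 3 of Itgb1bp1.

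Among the classical cadherins of type I, Cdh2, the N-cadherin of synapses, had signals of 5529 and 5618 in APPSw mice, against 5627 and 4775 in controls. The groups overlapped, and the log2 difference was 0.10 (SE 0.18, adjusted p = 0.882), or -0.014 without control 2. Cdh3, which encodes P-cadherin, had 2819 and 2040 in APPSw mice, against 1531 and 1661 in controls. Both APPSw arrays were higher, by 0.59 on the log2 scale (SE 0.22, adjusted p = 0.609), and this was 0.36 without APPSw 1 and 0.82 without APPSw 2. Its other probe set, under the filter, had 546 and 588 in APPSw mice, against 458 and 355 in controls, a log2 difference of 0.49.

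Cdh1, which encodes the E-cadherin of epithelia, is the direct neighbour of Cdh3 among protein-coding genes in RefSeq's mouse annotation (GRCm38.p6) and had 1987 and 1521 in APPSw mice, against 1670 and 2358 in controls. Its groups overlapped, with a log2 difference of -0.19 (SE 0.25), or 0.0021 without APPSw 2 and -0.38 without APPSw 1. Cdh4, the R-cadherin gene, had 865 and 429 in APPSw mice, against 826 and 1144 in controls, a log2 difference of -0.67 (SE 0.37, adjusted p = 0.634). APPSw 2 alone stood low for Cdh4, and the difference was -0.17 without it and -1.18 without APPSw 1. Its 2 dim probe sets gave -0.44 and 0.27. Cdh15, the M-cadherin gene of muscle, lay under the filter with both its probe sets, at differences of 0.71 and 1.52.

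Type II cadherins mark neuronal subtypes and circuits. Cdh8 had signals of 1364 and 1201 in APPSw mice, against 1161 and 716 in controls, a log2 difference of 0.49 (SE 0.27, adjusted p = 0.634). APPSw 2 exceeded control 1 by only a small margin, and the difference was 0.14 without control 2 and 0.84 without control 1. Cdh11, its direct neighbour in that annotation, had 1052 and 1038 in APPSw mice, against 1136 and 1232 in controls, a log2 difference of -0.18 (SE 0.17). Both APPSw arrays were lower for Cdh11. Cdh10 differed by 0.04 (SE 0.19), and the dim probe sets of its close neighbours Cdh9 and Cdh6 by -0.40 and -0.14.

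Cdh13, the T-cadherin gene, encodes an unusual member that lacks a cytoplasmic tail and is anchored to the membrane by a lipid. Its signals were 388 and 959 in APPSw mice, against 854 and 853 in controls. The controls were nearly equal and lay between the APPSw arrays, so the log2 difference of -0.48 (SE 0.42) came from APPSw 1 and was 0.17 without it. Cdh16, a cadherin of kidney, was under the filter at 0.85 with overlapping groups. The protocadherins Pcdh7 and Pcdh12 were under it too. The 3 protocadherin probe sets had signals of 53.6 to 273.4 in APPSw mice and of 42.3 to 184.2 in controls, and each overlapped between groups.

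Desmosomal cadherins join epithelial and heart muscle cells to intermediate filaments. Dsg2 had signals of 1216 and 1304 in APPSw mice, against 562 and 599 in controls. These groups stood clear of each other, at a log2 difference of 1.12 (adjusted p = 0.599, SE 0.17), the largest among the 33 members. It ranged from 1.07 to 1.17 with an array left out. In alternatives with all 4 arrays, limma's adjusted p ranged from 0.414 with a replicate block to 0.635 under quantile normalization. The controls lay near the filter's 565, and the probe set did not pass the filter at the 60th percentile. The other Dsg2 probe set was dim and gave 243.4 and 60.6 in APPSw mice, against 91.4 and 143.3 in controls, a log2 difference of 0.09.

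Desmocollins, the partners of desmogleins, were dim throughout. A Dsc2 probe set had 131.0 and 168.9 in APPSw mice, against 33.6 and 5.9 in controls, and the other had 9.9 and 30.9 in APPSw mice, against 8.9 and 80.5 in controls. Their log2 differences, 3.40 and -0.61, had opposite signs. Dsc1 and Dsc3, neighbours of Dsc2, differed by 0.54 and -0.27, with overlapping groups.

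By kind, 3 of 9 cadherin probe sets past the filter lay above both controls and 1 below both, with a median log2 difference of 0.04. Of 14 integrin probe sets past the filter, 7 lay above both controls and 1 below both, and the median was 0.24. Of 7 for NCAM, contactins, Cntnap1 and the L1 family, 3 lay above and 1 below, with a median of 0.11. Over all probe sets past the filter, 22.2% lay above and 19.0% below, and with so few members of a kind nothing is read from these counts. On APPSw arrays 1 and 2, medians relative to the mean of the controls were 0.32 and 0.29 for integrins and 0.08 and 0.12 for cadherins. They were 0.10 and -0.14 for NCAM, contactins, Cntnap1 and the L1 family, and 0.02 and 0.02 over all probe sets past the filter. The 14 integrin probe sets stand for 9 genes. Control 1 minus control 2 had a median of 0.05 for integrins, -0.09 for cadherins and 0.04 for the third kind. The difference between these kinds was not tested.

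**Figure D2:**
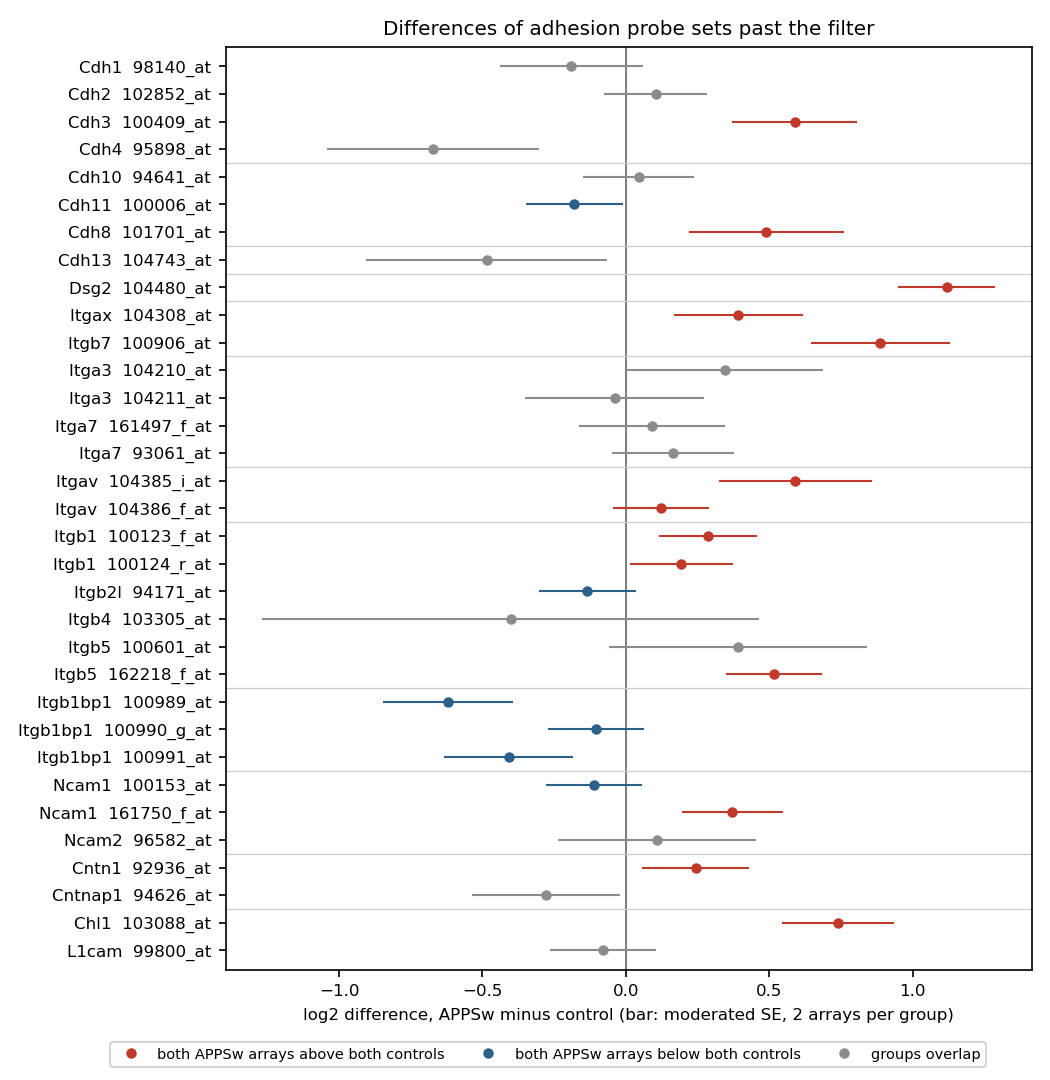
Log2 difference of each of the 33 member probe sets past the filter, APPSw minus control, with limma's moderated SE as bars (2 arrays per group). Dsg2 lies farthest right at 1.12 and Cdh4 farthest left at -0.67, and Itgb4 has the widest bar, an SE of 0.87.

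Itgb1 encodes the beta 1 chain, the partner of many alpha chains. By its brighter probe set, 100123_f_at, signals were 8497 and 8852 in APPSw mice, against 6807 and 7427 in controls. By the dimmer, 100124_r_at, they were 2220 and 2419 in APPSw mice, against 2165 and 1897 in controls. Both probe sets were higher on both APPSw arrays, with log2 differences of 0.29 (SE 0.17, adjusted p = 0.651) and 0.19 (SE 0.18, adjusted p = 0.766). The second was 0.099 without control 2 and 0.29 without control 1. The suffix _f marks probes that a family of similar sequences can share, and _r and _i mark probe sets built with relaxed rules or fewer probes, so such signals may include related transcripts.

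Itgb1bp1 encodes a small protein that binds the tail of the beta 1 chain and is known to restrain its activation. Probe set 100989_at gave 1264 and 1807 in APPSw mice, against 2307 and 2339 in controls, a log2 difference of -0.62 (SE 0.23, adjusted p = 0.609). Probe set 100991_at gave 804.4 and 1142.7 in APPSw mice, against 1316.6 and 1231.0 in controls, a difference of -0.41 (SE 0.23, adjusted p = 0.634). Probe set 100990_g_at gave 1210.2 and 1194.3 in APPSw mice, against 1257.8 and 1327.2 in controls, a difference of -0.10 (SE 0.17, adjusted p = 0.871). All 3 were lower on both APPSw arrays, and they share a gene, so they count as 1 observation of it. With an array left out, the difference ranged from -0.88 without APPSw 2 to -0.36 without APPSw 1 for 100989_at. It ranged from -0.66 without APPSw 2 to -0.16 without APPSw 1 for 100991_at, and from -0.14 without control 1 to -0.065 without control 2 for 100990_g_at.

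Itgav encodes the alpha V chain, which recognises the RGD sequence of vitronectin and fibronectin and pairs with beta 1, beta 3, beta 5 and other chains. Its bright probe set 104386_f_at had 11856 and 11989 in APPSw mice, against 11327 and 10595 in controls, a log2 difference of 0.12 (SE 0.17), or 0.074 without control 2 and 0.17 without control 1. Probe set 104385_i_at had 1700 and 1330 in APPSw mice, against 806 and 1236 in controls, a difference of 0.59 (SE 0.27, adjusted p = 0.612), or 0.28 without control 1 and 0.90 without control 2. Both were higher on both APPSw arrays, yet the dim 98366_at had 62.5 and 638.6 in APPSw mice, against 395.0 and 769.3 in controls, a difference of -1.46.

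Itgb5 encodes the beta 5 chain, a partner of alpha V. Probe set 162218_f_at had 1576 and 1654 in APPSw mice, against 1134 and 1124 in controls, higher by 0.52 on the log2 scale (SE 0.17, adjusted p = 0.599). The arrays of each group were close and the groups did not overlap. Probe set 100601_at had 3398 and 3135 in APPSw mice, against 4053 and 1528 in controls. Here the controls lay on either side of both APPSw arrays, and the difference of 0.39 (SE 0.45) was -0.31 without control 2 and 1.10 without control 1. Itgb3, another partner of alpha V, was under the filter and overlapped between groups at -0.60.

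Itgb4, the beta 4 chain of epithelial hemidesmosomes, had signals of 1803 and 250 in APPSw mice, against 796 and 987 in controls. The APPSw arrays lay on opposite sides of the controls, and the log2 difference of -0.40 (SE 0.87) was 1.02 without APPSw 2 and -1.83 without APPSw 1. Among laminin-binding alpha chains, Itga7 differed by 0.16 (SE 0.21) and 0.09 (SE 0.25) and Itga3 by 0.34 (SE 0.34) and -0.04 (SE 0.31) by their probe sets past the filter. All 4 of these overlapped between groups. Under the filter, the laminin receptor chain Itga6 differed by 0.28, the fibronectin receptor chain Itga5 by 0.04 and the collagen receptor chain Itga2 by -0.05, with overlapping groups. Itga8 differed by 0.37 and 0.22, and a further, dim Itga7 probe set by 0.65.

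Leukocyte integrins serve here as members and as signs of microglia and blood cells. Itgax, the CD11c chain of dendritic cells that microglia around plaques also make, had 866 and 1181 in APPSw mice, against 836 and 709 in controls. Both APPSw arrays were higher, APPSw 1 by a small margin, and the log2 difference was 0.39 (SE 0.22, adjusted p = 0.637). It was 0.17 without APPSw 2 and 0.62 without APPSw 1. Its neighbour Itgam, the CD11b chain of microglia, had only 228.1 and 131.5 in APPSw mice, against 152.0 and 184.8 in controls. Itgb2, the beta chain that both of these need, had 396.8 and 49.1 in APPSw mice, against 325.0 and 37.0 in controls. Both Itgam and Itgb2 lay under the filter and overlapped between groups.

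Itgb7 encodes the beta 7 chain, which with the alpha 4 chain homes lymphocytes to the gut. Probe set 100906_at had 1715 and 1561 in APPSw mice, against 1082 and 723 in controls, higher by 0.89 on the log2 scale (SE 0.24, adjusted p = 0.599). The groups stood apart, and the difference ranged from 0.60 to 1.18 with an array left out. The other Itgb7 probe set was dim, lay lower on both APPSw arrays and gave -0.96. Partner chains were dim as well. The 3 probe sets of Itga4 had log2 differences of 1.13, 0.93 and 0.53, each higher on both APPSw arrays. For 102655_at, the signals were 194.2 and 204.5 in APPSw mice, against 128.8 and 64.6 in controls. For 95292_at they were 455.0 and 372.0 in APPSw mice, against 261.2 and 177.5 in controls. Probe set 102656_at had 552.2 and 277.1 in APPSw mice, against 270.5 and 273.1 in controls. Its APPSw 2 signal was thus only just higher, by 0.03 on the log2 scale against the control mean. Both probe sets of Itgae, the alpha E chain, separated the groups in opposite directions, at -1.54 and 1.62. Itgal, an alpha chain of lymphocytes, had overlapping groups at 0.04. Itgb2l, whose symbol means integrin beta 2-like, had 585.7 and 591.7 in APPSw mice, against 674.9 and 618.7 in controls, a difference of -0.13 (SE 0.17).

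Markers of microglia and leukocytes gave no single direction: of 13 probe sets past the filter, 9 were above 0 and 4 below, with a median log2 difference of 0.13. The sums of their signals were 52580 and 55230 in APPSw mice, against 56170 and 51400 in controls. Ptprc, the CD45 antigen of all leukocytes, had signals of 6.8 to 187.1 in APPSw mice and of 13.3 to 86.9 in controls over its 3 probe sets, all under the filter. In bulk tissue, fewer cells of a type and less RNA per cell cannot be told apart.

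NCAM is a major adhesion protein of neurons. Ncam1, its gene, had signals of 13011 and 12549 in APPSw mice, against 13991 and 13594 in controls, by its bright probe set 100153_at. Both APPSw arrays were lower, by a log2 difference of -0.11 (SE 0.17, adjusted p = 0.864). Probe set 161750_f_at gave 1766 and 1991 in APPSw mice, against 1404 and 1498 in controls, a difference of 0.37 (SE 0.18, adjusted p = 0.612) with both APPSw arrays higher. Another, dim probe set gave 0.26. Ncam1 thus had no single direction, and the sources used here do not say which transcript forms each probe set reads.

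Ncam2, known from olfactory axons, had 1085 and 537 in APPSw mice, against 732 and 684 in controls, a log2 difference of 0.11 (SE 0.34). The APPSw arrays lay on either side of the controls, and the difference was 0.62 without APPSw 2 and -0.40 without APPSw 1. Its dim probe set had 301.6 and 404.0 in APPSw mice, against 97.6 and 262.7 in controls, a difference of 1.12.

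Chl1, the close homologue of L1 and a substrate of the beta-secretase that also cuts amyloid precursor protein, had 4647 and 5822 in APPSw mice, against 2968 and 3270 in controls. Each APPSw array was above each control, by 0.74 on the log2 scale (SE 0.20, adjusted p = 0.599), which is 1.67-fold. With an array left out it ranged from 0.58 to 0.90. Its dim probe set had 153.0 and 42.4 in APPSw mice, against 46.6 and 66.1 in controls, and overlapped between groups. L1cam, the founder of the family, had 1183 and 1067 in APPSw mice, against 1289 and 1094 in controls, with overlapping groups and a log2 difference of -0.08 (SE 0.19).

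Cntn1 encodes contactin 1, an axonal protein anchored by a lipid. It had 17321 and 21035 in APPSw mice, against 16353 and 15909 in controls, a log2 difference of 0.24 (SE 0.19, adjusted p = 0.719). Both APPSw arrays were higher, and the difference was 0.10 without APPSw 2 and 0.38 without APPSw 1. Cntnap1, which binds contactin 1 beside the node, had 1870 and 1472 in APPSw mice, against 1655 and 2448 in controls. Its groups overlapped at -0.28 (SE 0.26), and the difference was 0.0042 without control 2. Cntn3 and Cntn4, which lie near Chl1 in the genome, were under the filter. Cntn3 overlapped between groups at -0.69, and Cntn4 had 110.1 and 431.2 in APPSw mice, against 83.3 and 84.7 in controls.

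Of the 46 genes, 19 had several probe sets, and for 12 of these all pointed one way. For the other 7 they pointed both ways, among them Ncam1, Itgav, Itgb7, Itgae and Dsc2. Where more than 1 probe set passed the filter, they pointed one way for 5 genes (Itga7, Itgav, Itgb1, Itgb1bp1 and Itgb5) and both ways for 2 (Itga3 and Ncam1). Dim members were less steady: under the filter, the median fold between the APPSw arrays was 1.68 and that between the controls 1.84, against 1.21 and 1.10 for members past it.

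**Figure D3:**
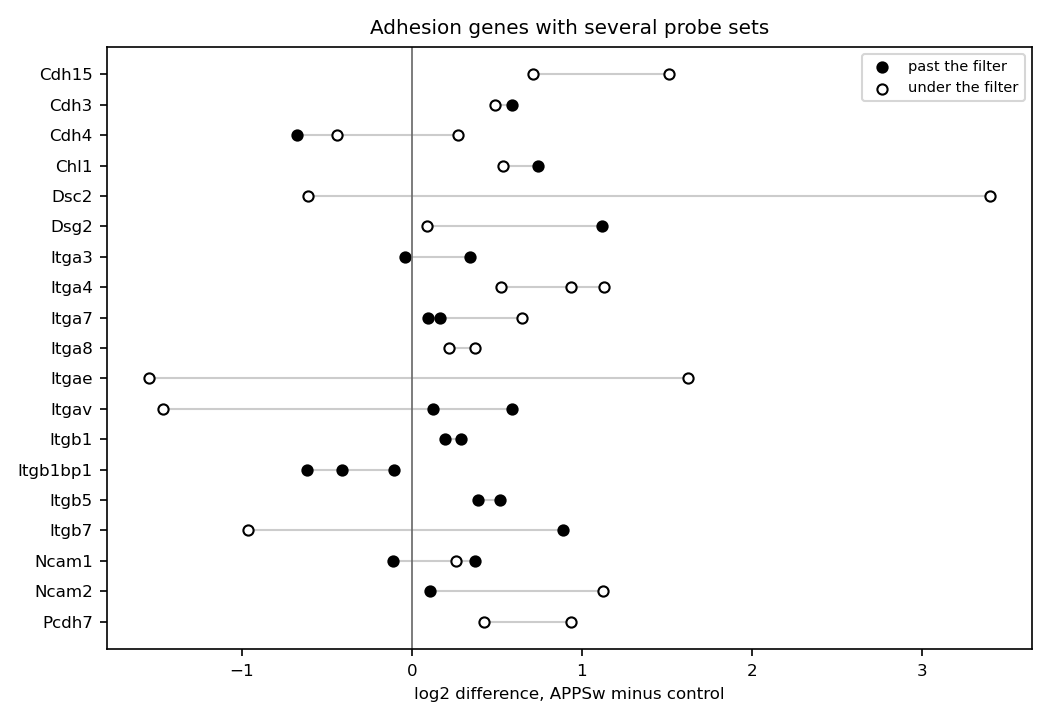
Log2 difference, APPSw minus control, of every probe set of the 19 adhesion genes that have several, with filled points past the filter and open points under it. The widest spans, for Dsc2 and Itgae, run between open points on opposite sides of 0, while the filled points of Itgb1, Itgb1bp1 and Itgb5 lie on one side each.

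The proteins that adhesion molecules bind inside the cell gave no call either. Of 15 probe sets for catenins and plaque proteins past the filter, 6 were above 0 and 9 below, with a median log2 difference of -0.04. Over all 7453 probe sets past the filter, 3927 were above 0 and 3526 below. Ctnna2, the neuronal alpha catenin, had 865.2 and 683.2 in APPSw mice, against 486.6 and 470.8 in controls, a difference of 0.68 (SE 0.19) by 1 probe set, but -0.04 and -0.12 by its others. Both controls of that probe set lay under the filter's 565, so it was tested only because its APPSw signals were high. Pkp2, a plaque protein of desmosomes, differed by -0.60 (SE 0.22) and 0.08.

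Among 27 probe sets of integrin adaptors and kinases, which include the 3 of Itgb1bp1, 12 were above 0 and 15 below, at a median of -0.08. Bcar1, a docking protein at matrix contacts, had 2793 and 2296 in APPSw mice, against 3388 and 3841 in controls, a log2 difference of -0.51 (SE 0.19). Of 14 probe sets of neurexin and neuroligin partners, 6 were above 0 and 8 below, at -0.02, and 0 had an unadjusted p under 0.05. Their lowest adjusted p from limma was 0.612.

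Of 25 probe sets of NCAM, L1 and contactin partners, 7 were above 0 and 18 below, with a median log2 difference of -0.14. Higher on both APPSw arrays were Ezr, a linker of membrane to actin, at 0.52 (SE 0.19), and Kcna1, the axonal potassium channel that lies beside the contactin junction, at 1.40 (SE 0.23). Ank3, the ankyrin that L1 family proteins bind at the axon initial segment, had 6437 and 7639 in APPSw mice, against 4545 and 4674 in controls, a difference of 0.61 (SE 0.18), and 0.33 (SE 0.30) by its other probe set. Epb41l2, a membrane skeleton protein, differed by -0.65 (SE 0.19) and the growth factor receptor gene Fgfr1 by -0.46 (SE 0.17). The lowest adjusted p over these 4 partner lists was 0.599.

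Several marker lists differed between the groups or on 1 array. Choroid plexus markers, of which 3 of 12 passed the filter and 7 were measured, summed to 93230 in APPSw 1 and 4939 in APPSw 2, against 11740 and 3339 in controls. Most of each sum was Ttr, at 83384 and 3236 in APPSw mice, against 8908 and 1896 in controls. Sums weigh bright probe sets most, so they do not stand for a list as a whole. The 11 probe sets of meninges and fibroblasts were all above 0, with a median log2 difference of 0.57. They summed to 197200 and 124300 in APPSw mice, against 103300 and 112100 in controls, and Ptgds made up most of each sum. Principal neuron markers were below 0 in 10 of 13 and summed to 76480 and 61950 in APPSw mice, against 90400 and 84030 in controls. Oligodendrocyte markers were below 0 in 13 of 14 and summed to 137200 and 114700 in APPSw mice, against 142600 and 153900 in controls. Over all 7453 probe sets past the filter, 3927 were above 0 and 3526 below. Several probe sets of a list can stand for the same gene, and Dsp is on both the principal neuron list and that of catenins and plaque proteins. Endothelium and astrocyte markers had median log2 differences of 0.07 and -0.11. Signals at 0 numbered 0 in every list. The part of these shifts in the differences of Cdh3, Dsg2, Chl1, Cntnap1 and the integrins was not tested. Without APPSw 1, the log2 difference was 1.17 for Dsg2, 0.90 for Chl1, 0.82 for Itgb7 100906_at, 0.55 for Itgb5 162218_f_at and 0.36 for Cdh3. It was 0.41 for Itgav 104385_i_at, -0.45 for Cntnap1 and -1.83 for Itgb4. These members are a selection, and among the other integrins Itga3 had 0.85 by 104210_at and -0.42 by 104211_at. Meninges and fibroblast markers had a median of 0.28 on APPSw 2 relative to the mean of the controls. Leaving out APPSw 1 thus does not remove their shift.

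**Figure D4:**
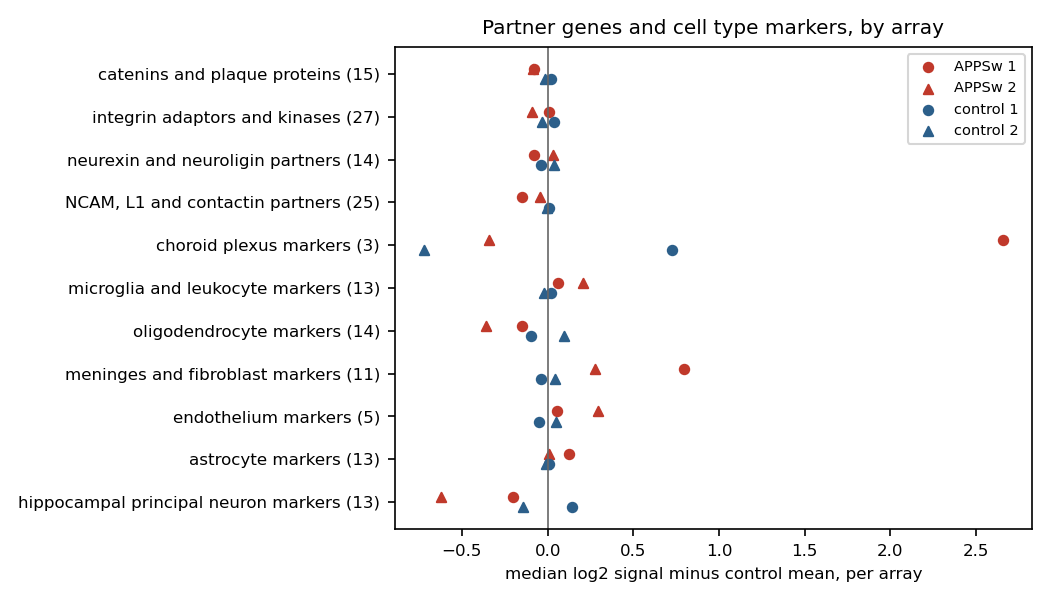
Median log2 signal of each list on each array relative to the mean of the controls, with the number of probe sets past the filter in brackets and APPSw arrays in red above controls in blue. The 4 partner lists lie between -0.15 and 0.04 on every array, while choroid plexus markers reach 2.66 in APPSw 1.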

How the data were processed

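Each of the 4 arrays measured total RNA of 1 left hippocampus. Values are intensity signals from MAS 5.0, which the authors brought to a target of 2500, per the labels; detection calls were not used here. Genes were named from the platform annotation, which can be old. Log2 signals, with no further normalization, were compared in limma 3.58.1 (R 4.3.3), APPSw minus control, with lmFit, eBayes and Benjamini-Hochberg adjustment over all 7453 probe sets that passed the filter at the 40th percentile of mean log2 signal, two-sided, with 0.05 as threshold. Manufacturer's controls were left out. The script was tested on simulated data with known changes. That test checked the mean estimated change and limma's share of unchanged probe sets at an unadjusted p under 0.05. How many changes limma recovered at an adjusted p under 0.05 is not given here, so 0 calls do not mean no change.

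Named members were the brightest and the most different gene of each family, genes with an unadjusted p under 0.05, genes with several probe sets past the filter, and a few fixed genes such as Itgam, Itgb2, Itgax, Ncam1 and Cdh2; partner genes were named at an unadjusted p under 0.05. The members and lists were chosen with earlier results of these data known, so counts over them are descriptions. The alternatives were quantile normalization, a floor or pseudocount of 250, no filter or one at the 60th percentile, an intensity trend, a replicate block, 1 probe set per gene and each array left out. Gene neighbours come from RefSeq GRCm38.p6, used for names and order only, since the sources used here name no build.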

Additional observations from a re-analysis of the deposited data

How the results depend on the processing

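With 2 arrays per group, 0 adhesion probe sets passed the adjusted test in limma under each alternative for which calls were counted; with 1 probe set per gene only the median was computed, 0.10. Quantile normalization, the floor, the pseudocount and the intensity trend left the counts within 1.5 times and the median within the spread between arrays. With no filter, 25 of 71 members lay above both controls and the median log2 difference was 0.19. With the filter at the 60th percentile, 15 members were left, and the median was 0.16. Of these, 2 were higher and 1 lower at an unadjusted p under 0.05 in limma, and 7 lay above and 2 below both controls. Shares over all probe sets are not given for this setting, so nothing is read from these counts. Leaving out an array, so that the spread comes from the other group alone, gave 3 to 6 higher and 0 to 3 lower at an unadjusted p under 0.05, 8 to 14 members below both controls, which is easier with fewer arrays, and a median of 0.061 to 0.21. The limma fit with a replicate block gave 5 higher and 1 lower at an unadjusted p under 0.05. Replicate numbers only name the arrays, and deviations of same-numbered arrays correlated at -0.02.

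Log2 differences of 28 named probe sets changed sign in 12 of 112 values with an array left out, in 1 of 28 under quantile normalization and in 0 of 28 with the pseudocount; the other alternatives leave these differences as they are. Cdh10 turned to -0.040 under quantile normalization. Leaving out an array gave ranges across 0, of log2 difference, for Cdh10 (-0.12 to 0.21), Cdh13 (-1.14 to 0.17), Cdh2 (-0.014 to 0.22), Cntnap1 (-0.56 to 0.0042), L1cam (-0.20 to 0.038), Itgb5 100601_at (-0.31 to 1.10), Itga3 104210_at (-0.16 to 0.85) and 104211_at (-0.42 to 0.34), and Itga7 161497_f_at (-0.19 to 0.37) and 93061_at (-0.0090 to 0.34). Outside the naming rule, Itgb4 (-1.83 to 1.02), Ncam2 96582_at (-0.40 to 0.62) and Cdh1 (-0.38 to 0.0021) also crossed 0 with an APPSw array left out. The cause was not tested.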

Other observations

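A further 8 probe sets are each paired with 9 to 14 protocadherin alpha symbols and so belong to no single gene. Clustered protocadherins give neurons distinct surface identities. Of these 8, 7 passed the filter, and limma's adjusted p was 0.599 to 0.974. Probe set 101773_r_at had signals of 1065.9 and 1112.5 in APPSw mice, against 664.3 and 542.1 in controls, a log2 difference of 0.86. Probe set 101772_r_at had 2432.6 and 1772.8 in APPSw mice, against 1052.9 and 1578.1 in controls, a difference of 0.69. Probe set 97756_s_at had 1582.7 and 1906.7 in APPSw mice, against 1374.1 and 891.2 in controls, a difference of 0.65. These 3 were higher on both APPSw arrays, and the groups overlapped for the other 5. Both APPSw arrays lay above both controls for 22.2% of all probe sets past the filter and 23.6% with no filter. With so few probe sets nothing is read from this count. The brightest, 101650_at, had 13174.3 and 11663.9 in APPSw mice, against 13627.3 and 10652.0 in controls, a difference of 0.04. The probe sets share targets, so they are not independent of each other.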
